A study of Mus musculus with 6 samples.

Results

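The genes described here are 47 cell cycle genes of the mouse, 25 that act in DNA replication and 22 that act in mitosis. Their levels were read in regulatory T cells (Tregs) with and without targeting of Junb, the gene of the transcription factor subunit JunB. The 47 genes were chosen by name, and the symbols were matched to the gene identifiers of the deposited count tables. All 47 were found among the 53379 identifiers, and all 47 passed the filter on low counts that left 20475 genes for testing. Tregs are the T cells that hold immune responses in check and are defined by the transcription factor FOXP3. JunB is one of the proteins that pair to form AP-1, a transcription factor that T cells induce after stimulation. There were 6 libraries of Tregs purified by flow cytometry from C57BL/6 mice aged 3 months. In all 6, the mice carried Foxp3-YFP-Cre, an allele that makes the recombinase Cre together with a yellow fluorescent protein in cells that express Foxp3. The 3 wild-type libraries (WT) had that allele with intact Junb (Junb+/+), and the 3 knockout libraries (KO) had it with floxed Junb (JunbFlox/Flox), which Cre deletes in Foxp3-expressing cells. Neither the labels nor the tables say how many mice stand behind a library or which gate was sorted, so a p-value here reflects only how the 6 libraries scatter, some of which may be technical. The comparison asks whether the machinery of S phase and that of cell division stand at other levels in Tregs with floxed Junb.

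A dividing cell copies its DNA in S phase and separates the copies in mitosis. In late mitosis and G1 the licensing factors CDC6 and CDT1 load the MCM helicase on replication origins, and in S phase CDC45 and GINS join it to unwind the DNA while polymerases, held by the clamp PCNA, copy the strands with nucleotides that ribonucleotide reductase supplies. Later, cyclin B with CDK1, Polo and Aurora kinases, the spindle motors and a ubiquitin ligase bring chromosomes to the spindle and part them. E2F factors switch on many replication genes at the start of S phase. The promoters of many mitotic genes carry a CHR element (cell cycle genes homology region), to which a complex of MuvB proteins with B-MYB or FOXM1 binds in G2 and mitosis, often beside CCAAT boxes bound by NF-Y. In Tregs, as in other T cells, these genes are low in resting cells and high in cells that divide.

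The 2 classes of genes differed in the letters of their promoters, which are shown first because the comparison of the classes runs through the results. RefSeq promoters (build GRCm38.p6, 250 bases before to 50 bases after the start) were matched by symbol for 39 of the 47 genes, 21 of replication and 18 of mitosis. Both strands were searched for 8-letter E2F motifs (TTTGGCGC, TTTCCCGC, TTTCGCGC and TTTGCCGC), for CHR elements (TTTGAA and TTCGAA), for the CCAAT box (CCAAT) and for the AP-1 site TGAGTCA. Matches may overlap, both within a motif, as 2 E2F matches do at Mcm6, and between motifs, since an E2F match can end in the first letter of a CCAAT box. The 39 genes had 42 promoter entries, and a gene was counted if any of its entries matched. All promoters were instead counted entry by entry, so the shares are not fully alike. For 33 of the 42 entries, bases just after the start were found near the beginning of a GENCODE transcript of the gene. Some windows did not lie at the annotated start of the gene. Those of E2f1 and Dut, which had no E2F motif, lay wholly within the gene, as did that of Cdc6, which had 1. An E2F motif was found at 9 of 21 replication genes (42.9%), at 1 of 18 mitosis genes (5.56%, Cdk1) and at 2.26% of all 32851 promoters. Mcm7 and Uhrf1 were counted through only 1 of their entries. A CHR element was found at 14 of 18 mitosis genes (77.8%), at 4 of 21 replication genes (19.0%) and at 19.2% of all promoters. A CCAAT box was found at 16 of 18 mitosis genes (88.9%), at 13 of 21 replication genes (61.9%) and at 37.4% of all promoters, and all 14 mitosis genes with a CHR element had one. The AP-1 site was found at 0 of 21 and 0 of 18 genes and at 5.2% of all promoters, which says only that these letters are not in these windows. A match describes the letters and does not show that a factor binds.

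Promoters of 6 genes whose values are given in full below are printed from 250 bases before to 20 bases after the start. They were chosen after the matches were seen, because each holds a motif typical of its class. Capitals mark matches of E2F motifs and CHR elements on either strand. The first 3 belong to replication genes, Mcm6 (chr1:128359686-128359955, minus strand), Rfc3 (chr5:151651189-151651458, minus strand) and Pola1 (chrX:93632136-93632405, minus strand). The other 3 belong to mitosis genes, Prc1 (chr7:80294201-80294470, plus strand), Cenpf (chr1:189688067-189688336, minus strand) and Bub1 (chr2:127831840-127832109, minus strand).
Mcm6: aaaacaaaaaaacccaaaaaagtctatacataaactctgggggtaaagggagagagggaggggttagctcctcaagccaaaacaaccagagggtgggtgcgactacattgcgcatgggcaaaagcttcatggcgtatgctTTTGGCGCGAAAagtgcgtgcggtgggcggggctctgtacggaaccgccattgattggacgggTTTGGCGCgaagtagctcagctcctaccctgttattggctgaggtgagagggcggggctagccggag
Rfc3: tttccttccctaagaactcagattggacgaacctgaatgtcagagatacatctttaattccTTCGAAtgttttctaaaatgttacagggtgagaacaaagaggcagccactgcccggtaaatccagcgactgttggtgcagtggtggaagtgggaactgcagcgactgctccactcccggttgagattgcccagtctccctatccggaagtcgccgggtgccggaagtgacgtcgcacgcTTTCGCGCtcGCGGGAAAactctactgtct
Pola1: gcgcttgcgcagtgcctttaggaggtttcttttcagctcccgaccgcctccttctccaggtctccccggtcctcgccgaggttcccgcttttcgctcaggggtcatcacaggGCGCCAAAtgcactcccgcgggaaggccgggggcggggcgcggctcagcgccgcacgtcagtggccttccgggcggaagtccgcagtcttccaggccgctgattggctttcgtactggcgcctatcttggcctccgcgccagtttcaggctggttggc
Prc1: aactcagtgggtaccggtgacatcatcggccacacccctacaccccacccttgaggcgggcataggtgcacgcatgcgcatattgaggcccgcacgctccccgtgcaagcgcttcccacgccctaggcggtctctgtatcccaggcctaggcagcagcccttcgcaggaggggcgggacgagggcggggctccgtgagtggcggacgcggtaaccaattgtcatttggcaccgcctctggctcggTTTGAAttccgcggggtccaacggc
Cenpf: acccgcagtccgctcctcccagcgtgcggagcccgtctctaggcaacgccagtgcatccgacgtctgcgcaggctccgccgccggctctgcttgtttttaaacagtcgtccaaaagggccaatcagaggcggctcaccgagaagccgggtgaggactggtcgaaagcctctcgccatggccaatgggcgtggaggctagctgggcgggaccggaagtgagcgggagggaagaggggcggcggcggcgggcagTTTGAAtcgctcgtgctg
Bub1: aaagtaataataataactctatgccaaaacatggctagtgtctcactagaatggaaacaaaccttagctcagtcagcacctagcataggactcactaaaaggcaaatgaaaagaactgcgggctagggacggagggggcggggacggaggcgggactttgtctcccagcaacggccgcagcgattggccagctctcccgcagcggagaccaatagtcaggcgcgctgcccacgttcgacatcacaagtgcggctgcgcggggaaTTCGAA
Mcm6 held 3 E2F matches, Rfc3 held 2 and Pola1 held 1, and Rfc3 also had the letters TTCGAA far from its start. Prc1, Cenpf and Bub1 each had 1 CHR element that began within 15 bases of the start. The promoter of Pcna, the most abundant replication gene per kilobase, had neither motif.

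Library totals lay between 33784183 and 41231173 counts, and the labels name no molecular identifiers. The lowest count of any of the 47 genes in a library was 15 (E2f1), and 43 of them had at least 100 counts in every library. The spread between libraries of a genotype was wide, with a common dispersion of 0.260, or a coefficient of variation of 51.0%. Junb, the targeted gene, had 87.1, 77.5 and 89.5 CPM (counts scaled to a library of 1000000) in WT, against 57.1, 57.3 and 49.6 CPM in KO, always in the order of replicates 1, 2 and 3, so the groups did not overlap and the KO libraries kept Junb reads. The Treg markers Foxp3, Il2ra, Ikzf2, Ctla4, Tnfrsf18, Tigit and Izumo1r were present in every library, and their summed level was 1997, 1780 and 2068 CPM in WT and 835, 1432 and 1886 CPM in KO. In the names of the deposited tables, WT replicates 1 and 2 and KO replicate 2 share 1 number (set A), and WT replicate 3 and KO replicates 1 and 3 share another (set B), and no source used here says what the number stands for.

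Levels of the mitosis genes were higher in KO than in WT for 19 of 22 genes, and replication genes were lower in KO for 15 of 25, but no single gene passed the test. Over all tested genes 50.9% had a higher and 49.1% a lower mean in KO. The median log2 difference, KO minus WT, was 0.31 over the mitosis genes (1.24-fold) and -0.08 over the replication genes (0.949-fold), beside 0.0055 over all tested genes. By edgeR's quasi-likelihood test with Benjamini-Hochberg adjustment over all tested genes, 0 of the 47 were called, as were 0% of all 20475, and the smallest adjusted p was 0.99992. Junb, the targeted gene, was thus not called either, at a log2 difference of -0.63 (unadjusted p = 0.00163, adjusted p = 0.99992, edgeR). At an unadjusted p under 0.05, edgeR had 2 of the 47 (4.26%), Prc1 and Cenpf, both higher in KO, beside 590 of all genes (2.88%, of which 1.4% higher and 1.48% lower in KO). The same 2 genes were those whose WT and KO libraries did not overlap, a share of 4.26% beside 7.76% of all genes (3.68% higher and 4.07% lower in KO), so neither share stood clear of that of genes in general. The 95% interval of the log2 difference held 0 for 25 of 25 replication genes, reaching a median of 0.74 to either side, and for 20 of 22 mitosis genes, reaching a median of 1.02. Changes well inside those reaches were not detectable with 3 libraries a group.

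**Figure D1:**
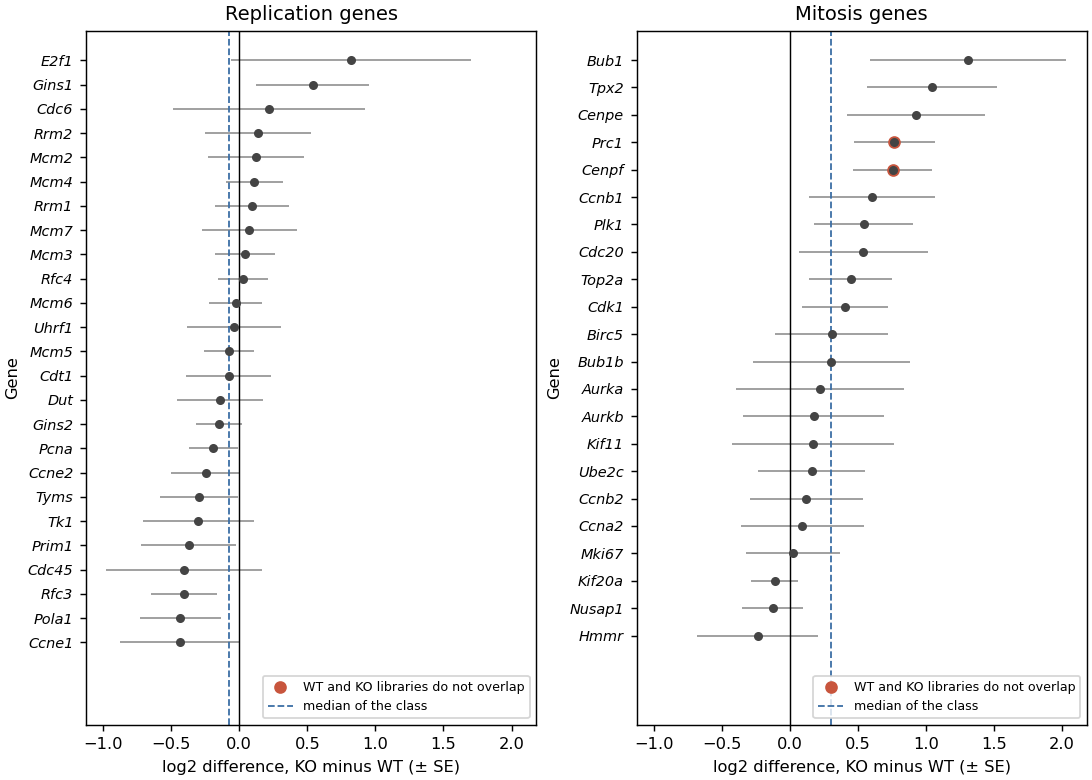
Log2 difference between KO and WT (x axis, edgeR, points with standard errors) for each of 25 replication genes (left) and 22 mitosis genes (right), ordered by size. The dashed line is the class median, -0.08 for replication and 0.31 for mitosis, and red rims mark Prc1 and Cenpf, the 2 genes whose WT and KO libraries did not overlap.

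The counts of direction rested on single libraries. Without WT replicate 1 or without KO replicate 1, 13 of 22 mitosis genes were higher in KO. With WT replicates 1, 2 and 3 left out in turn, the mitosis median was 0.13, 0.19 and 0.74, and with KO replicates 1, 2 and 3 left out it was 0.20, 0.10 and 0.56. For the replication genes it was between -0.18 and -0.15 without WT replicate 1 or 2 or KO replicate 1 or 2, and it changed sign to 0.12 without WT replicate 3 and to 0.01 without KO replicate 3. Without WT replicate 3, 10 of 25 replication genes were lower in KO. The sets also differed. Within set A, KO replicate 2 was above the mean of WT replicates 1 and 2 for 20 of 22 mitosis genes and 18 of 25 replication genes. Within set B, the mean of KO replicates 1 and 3 was above WT replicate 3 for 7 of 22 mitosis genes and 1 of 25 replication genes. The direction of neither class was thus the same in both sets.

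What did keep its direction was the distance between the classes inside each library. As a level for each class, the mean log2 CPM over its genes was taken. For the replication genes this mean was 4.19, 4.29 and 4.83 in WT and 4.62, 4.51 and 3.99 in KO. For the mitosis genes it was 3.23, 3.35 and 4.12 in WT and 4.30, 4.19 and 3.45 in KO. WT replicate 3 and KO replicates 1 and 2 were high and the other libraries low in both classes, so WT and KO overlapped in each. The replication mean minus the mitosis mean was 0.96, 0.94 and 0.71 in WT and 0.32, 0.32 and 0.54 in KO. Here the groups did not overlap: every KO library had its mitosis genes nearer to its replication genes than any WT library. With 3 libraries a group such a separation is not rare, and 7.76% of all tested genes had it in their own levels, in either direction. The means were 0.87 ± 0.14 in WT and 0.39 ± 0.12 in KO (SD, n = 3 each), a difference of -0.48, which was larger than the spread within either group. It was -0.63 within set A and -0.28 within set B, and between -0.56 and -0.43 with 1 library left out in turn. No test was made of this value, because the genes were chosen with earlier results of these libraries known.

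On other scales the same libraries kept the same sides. The ratio of the summed CPM of the replication genes to that of the mitosis genes was 2.56, 2.42 and 2.05 in WT and 1.75, 1.75 and 1.95 in KO. Per kilobase of exon the ratio of the mean levels was 2.86, 2.83 and 2.248 in WT and 1.96, 1.99 and 2.245 in KO, so that WT replicate 3 and KO replicate 3 were almost level. Exons of 14 of the 47 genes overlap those of another gene. With the other 33 genes alone the difference of class means was 1.30, 1.23 and 0.94 in WT and 0.47, 0.62 and 0.91 in KO, without overlap, and KO minus WT was -0.49. Further genes of the same processes gave another picture. Over 44 other replication genes and 64 other mitosis genes from a textbook list, the difference of class means was 1.36, 1.27 and 0.89 in WT and 0.99, 1.04 and 1.21 in KO, with overlap, and KO minus WT was -0.09. The ratio of their summed CPM went the other way, also with overlap. It was 0.87, 0.95 and 0.84 in WT and 0.96, 0.98 and 0.92 in KO, and KO minus WT was 0.07.

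**Figure D2:**
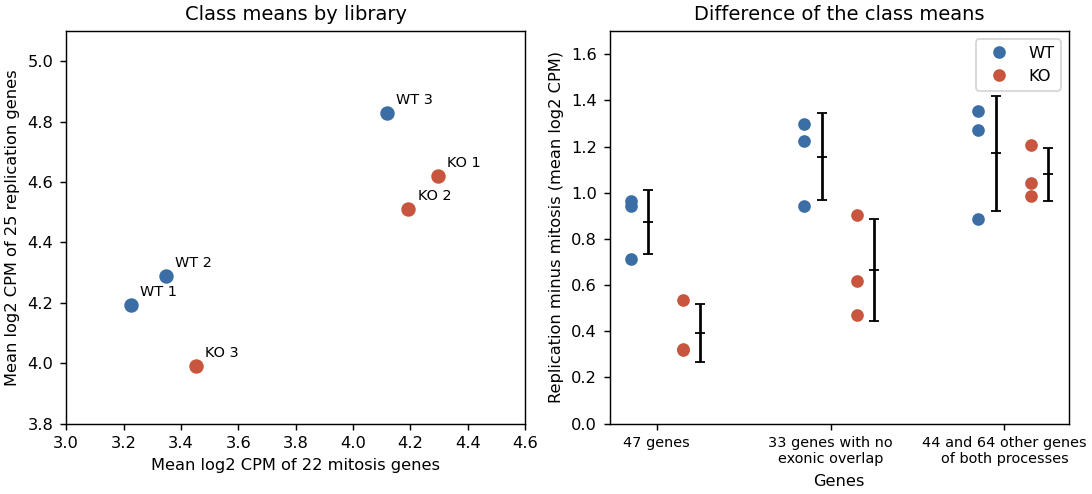
Left, mean log2 CPM of the 25 replication genes (y axis) against that of the 22 mitosis genes (x axis) in each of the 6 libraries. Right, the replication mean minus the mitosis mean (y axis, log2) in 3 WT and 3 KO libraries (points, with mean and SD beside them) for all 47 genes, for the 33 with no exonic overlap and for 44 and 64 other genes of both processes. KO replicates 1 and 2 coincide at 0.32 for the 47 genes, and the groups overlap only for those other genes.

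Among the MCM helicase subunits, WT and KO levels lay close together. The median log2 difference of the 6 subunits was 0.06, with 4 higher and 2 lower in KO, and none was beyond 0.12 in size. Mcm6, the most abundant, was at 99.5, 72.4 and 101.6 CPM in WT and at 86.3, 107.6 and 74.8 CPM in KO. Each group had a low library, and the groups overlapped fully, with a log2 difference of -0.03 ± 0.19 (SE) and a 95% interval from -0.48 to 0.43. Mean levels in WT and KO were 51.1 and 52.7 CPM for Mcm3, 56.0 and 60.4 CPM for Mcm4 and 54.9 and 52.0 CPM for Mcm5. Those of Mcm2 were 37.1 and 40.4 CPM, and those of Mcm7 were 47.3 and 49.8 CPM. KO replicate 3 had the lowest level of Mcm2 and Mcm7, at 20.1 and 29.5 CPM.

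Genes of the polymerases, the sliding clamp and its loader had the lowest median of the replication groups, -0.37, with 4 of 5 lower in KO. Pcna, the clamp that tethers polymerases to DNA, was at 75.3, 84.1 and 102.2 CPM in WT and at 89.5, 75.9 and 63.9 CPM in KO. The highest library was WT and the lowest was KO, with overlap between them, and the log2 difference was -0.19 ± 0.18. Rfc3, a subunit of the clamp loader, was at 11.1, 14.5 and 16.1 CPM in WT and at 9.91, 11.7 and 9.84 CPM in KO. Only WT replicate 1 reached down into the KO range, and the log2 difference was -0.41 ± 0.24 (unadjusted p = 0.136, edgeR), the smallest p of the replication genes. Pola1, the catalytic subunit of polymerase alpha that starts new strands, was at 8.18, 14.4 and 13.2 CPM in WT and at 9.94, 7.48 and 9.03 CPM in KO. Again WT replicate 1 lay among the KO libraries, with a log2 difference of -0.43 ± 0.30 (unadjusted p = 0.187, edgeR). Prim1, the primase that works with it, had means of 18.4 and 14.2 CPM, and Rfc4, another clamp loader subunit, 27.1 and 27.6 CPM. Rfc4 shares 12.65% of its exon bases with Eif4a2 on the other strand, which was at 208.7 to 298.8 CPM.

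The genes of nucleotide supply overlapped between the genotypes. Rrm2, the regulated subunit of ribonucleotide reductase, was at 45.5, 50.8 and 97.8 CPM in WT and at 93.4, 78.7 and 41.6 CPM in KO. Rrm1, the large subunit of the same enzyme, was at 52.3, 53.6 and 81.8 CPM in WT and at 85.6, 68.1 and 46.4 CPM in KO. In both, WT replicate 3 and KO replicate 1 were highest and KO replicate 3 lowest, and the log2 differences were 0.14 ± 0.39 and 0.09 ± 0.27. Mean levels in WT and KO were 34.9 and 28.4 CPM for Tyms, which makes thymidylate, 24.6 and 19.96 CPM for Tk1, which salvages thymidine, and 44.2 and 40.1 CPM for Dut, which keeps uracil out of DNA. The median log2 difference of the 5 genes was -0.14.

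The licensing and firing genes were mixed, with a median of -0.08 and 3 of 5 lower in KO. Gins1, a subunit of the GINS complex, was at 4.02, 2.57 and 3.27 CPM in WT and at 3.92, 3.399 and 7.01 CPM in KO. Its mean in KO rested on KO replicate 3, where most replication genes were lowest, and the log2 difference was 0.54 ± 0.42. Gins2, of the same complex, had means of 28.8 and 25.9 CPM, but 67.3% of its exon bases are shared with Gse1 on the other strand, so its reads and those of Gse1 cannot be told apart if strand was not used. Mean levels in WT and KO were 8.43 and 6.36 CPM for Cdc45, 8.78 and 10.2 CPM for Cdc6 and 11.8 and 11.2 CPM for Cdt1. Cdc6 ranged from 3.77 CPM in WT replicate 2 to 18.5 CPM in WT replicate 3, and Cdc45 from 2.24 CPM in KO replicate 3 to 11.8 CPM in KO replicate 1.

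Among the genes of S phase entry, 3 of 4 were lower in KO, with a median of -0.14. E2f1, whose protein drives S phase genes, was at 0.838, 0.847 and 2.45 CPM in WT and at 3.60, 3.31 and 0.404 CPM in KO. KO held both the highest values and the lowest, and the log2 difference of 0.82 had a standard error of 0.88 and an interval from -1.27 to 2.91. Ccne1, the cyclin E that acts with CDK2 at the start of S phase, was at 3.59, 4.53 and 8.33 CPM in WT and at 4.21, 5.17 and 2.78 CPM in KO, with overlap and a log2 difference of -0.44 ± 0.44. Its relative Ccne2 had means of 12.6 and 10.6 CPM, and Uhrf1, which carries DNA methylation to the new strand, 28.8 and 28.1 CPM. These 25 genes spanned a wide range per kilobase of exon, from 0.606 CPM per kilobase for E2f1 to 34.1 for Pcna, with a median of 5.58.

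**Figure D3:**
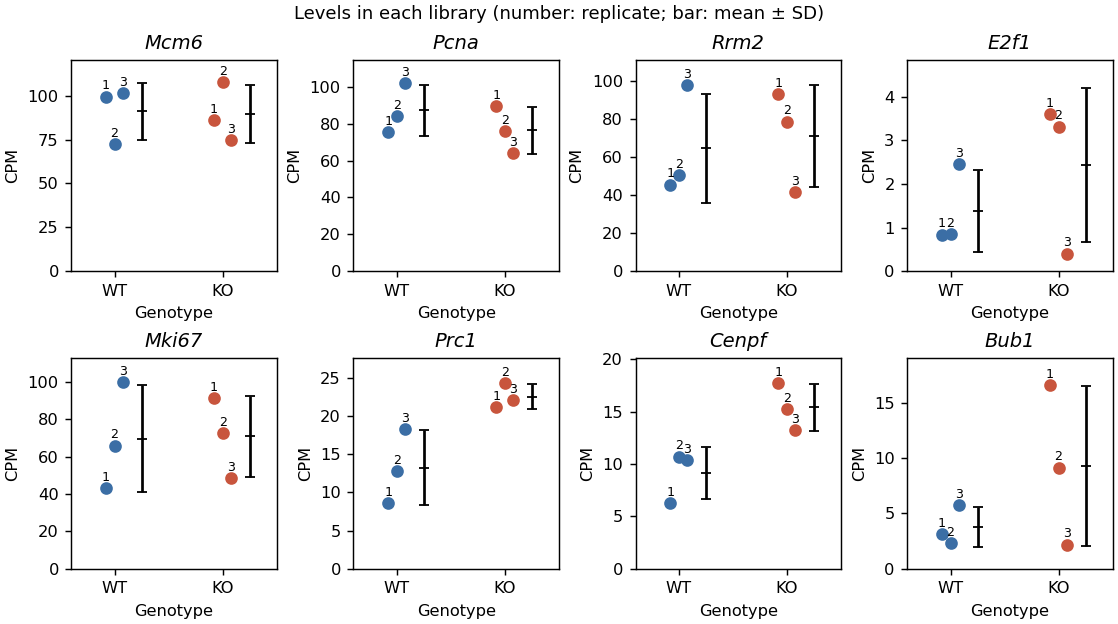
Levels in CPM (y axis) of 8 genes in 3 WT (blue) and 3 KO (red) libraries, with replicate numbers at the points and mean and SD beside them. Mcm6, Pcna, Rrm2 and E2f1 act in replication, and Mki67, Prc1, Cenpf and Bub1 in mitosis. Only Prc1 and Cenpf have all 3 KO points above all 3 WT points.

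Of the mitosis genes, the spindle, kinetochore and midzone group had the highest median, 0.46, with 5 of 8 higher in KO, and it holds both genes whose groups did not overlap. Prc1 (ENSMUSG00000038943.16, chr7:80294450-80316259, GRCm38), which bundles microtubules at the midzone where the cell divides, was at 8.56, 12.8 and 18.3 CPM in WT and at 21.1, 24.3 and 22.1 CPM in KO. The KO libraries lay close together above the highest WT library, with a log2 difference of 0.77 ± 0.30 (unadjusted p = 0.0371, adjusted p = 0.99992, edgeR). Of its 8225 exon bases, 911 are shared with Rccd1 on the other strand. Cenpf (ENSMUSG00000026605.14, chr1:189640606-189688086), a kinetochore protein made in G2, was at 6.30, 10.7 and 10.4 CPM in WT and at 17.8, 15.3 and 13.3 CPM in KO. WT replicate 1 was low, all 3 KO libraries were above all WT libraries, and the log2 difference was 0.75 ± 0.29 (unadjusted p = 0.0340, adjusted p = 0.99992, edgeR).

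Tpx2, which builds the spindle and activates Aurora A, was at 5.73, 5.93 and 8.08 CPM in WT and at 23.3, 10.8 and 6.68 CPM in KO. KO replicate 1 stood far above the rest and KO replicate 3 lay within WT, with a log2 difference of 1.05 ± 0.48 (unadjusted p = 0.0641, edgeR). Cenpe, a kinetochore motor, had means of 9.59 ± 6.88 and 18.3 ± 4.45 CPM (SD), and the spindle motor Kif11 had 9.31 and 10.5 CPM. The group also holds the only 3 mitosis genes with a lower mean in KO. Hmmr, a spindle protein, was at 8.56, 16.4 and 5.20 CPM in WT and at 9.88, 9.14 and 6.60 CPM in KO, with WT replicate 2 high and a log2 difference of -0.24 ± 0.44. Nusap1, which binds spindle microtubules, was at 14.7, 17.9 and 19.3 CPM in WT and at 16.6, 17.9 and 13.1 CPM in KO, a log2 difference of -0.12 ± 0.22. Kif20a, a kinesin of the midzone, was nearly flat at 30.6, 24.97 and 25.4 CPM in WT and 22.8, 27.0 and 25.1 CPM in KO. It shares 29.3% of its exon bases with Cdc23 on the other strand, which was at 45.3 to 72.8 CPM.

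All 6 genes of the mitotic kinases and checkpoint had a higher mean in KO, with a median of 0.31 and wide errors. Bub1, a checkpoint kinase of the kinetochore, was at 3.15, 2.34 and 5.77 CPM in WT and at 16.6, 9.14 and 2.18 CPM in KO. KO replicate 1 was highest and KO replicate 3 was the lowest library of all, so the log2 difference of 1.31, the highest of the 47 genes, had a standard error of 0.72 (unadjusted p = 0.113, edgeR). Mean levels in WT and KO were 9.26 and 13.5 CPM for Plk1, the Polo kinase, 7.30 and 8.54 CPM for Aurka, and 8.35 and 9.43 CPM for Aurkb. Birc5, the survivin that works with Aurora B, had 15.3 and 18.9 CPM, and Bub1b, the checkpoint protein BUBR1, 10.95 and 13.5 CPM. All of them overlapped between the groups.

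The cyclins and CDK1 were higher in KO in 4 of 4, with a median of 0.26. Ccna2, the cyclin of S phase and G2, was at 14.4, 10.1 and 33.4 CPM in WT and at 24.99, 21.0 and 15.8 CPM in KO. WT replicate 3 was the highest library, the KO libraries lay between the WT values, and the log2 difference was 0.09 ± 0.45. Mean levels in WT and KO were 13.0 and 19.7 CPM for Ccnb1, 14.8 and 16.1 CPM for Ccnb2 and 9.94 and 13.2 CPM for Cdk1, the kinase they activate. Without WT replicate 3 the log2 difference of Ccnb2 was 0.71, against 0.12 with it, that of Cenpe 1.69 against 0.93 and that of Aurka 1.21 against 0.22. Both genes of the ligase that starts anaphase were higher in KO, Cdc20, its activator, with means of 6.89 and 10.02 CPM, and Ube2c, its ubiquitin-conjugating enzyme, with 16.3 and 18.2 CPM.

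Mki67, which coats mitotic chromosomes and encodes the proliferation marker Ki-67, had means of 69.6 and 70.8 CPM in WT and KO. It was at 43.2, 65.9 and 99.8 CPM in WT and at 91.3, 72.8 and 48.3 CPM in KO, so both groups covered the same range, and the log2 difference was 0.02 ± 0.35 with an interval from -0.80 to 0.84. Top2a, the topoisomerase that untangles sister chromosomes, was at 51.8, 47.9 and 77.4 CPM in WT and at 73.7, 112.6 and 55.1 CPM in KO. KO replicate 2 was highest and the groups overlapped, with a log2 difference of 0.45 ± 0.30 (unadjusted p = 0.183, edgeR). Per kilobase of exon the mitosis genes were lower than the replication genes, with a median of 3.50 CPM per kilobase and a range from 0.796 for Cenpf to 10.1 for Ccnb2.

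Levels of the 47 genes varied together over the libraries. Replication genes were highest in WT replicate 3 for 15 of 25 and lowest in KO replicate 3 for 15 of 25. KO replicate 2 was above the gene's own mean for 22 of 22 mitosis genes, KO replicate 1 for 21 and WT replicate 3 for 17. WT replicate 3, KO replicate 1 and KO replicate 2 were the 3 highest libraries for 15 of 22 mitosis genes and 8 of 25 replication genes, beside 5.15% of all tested genes. As a description over the 6 libraries, the median Pearson correlation of log2 CPM was 0.61 between mitosis genes, 0.50 between replication genes and 0.44 across the classes, and the class means correlated at 0.82. Rrm2 followed the replication mean most closely (0.96) and Birc5 the mitosis mean (0.96), while Gins1 ran against its class (-0.60), as did Kif20a (-0.53) and Hmmr (-0.33). All these values share library, depth and scaling.

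**Figure D4:**
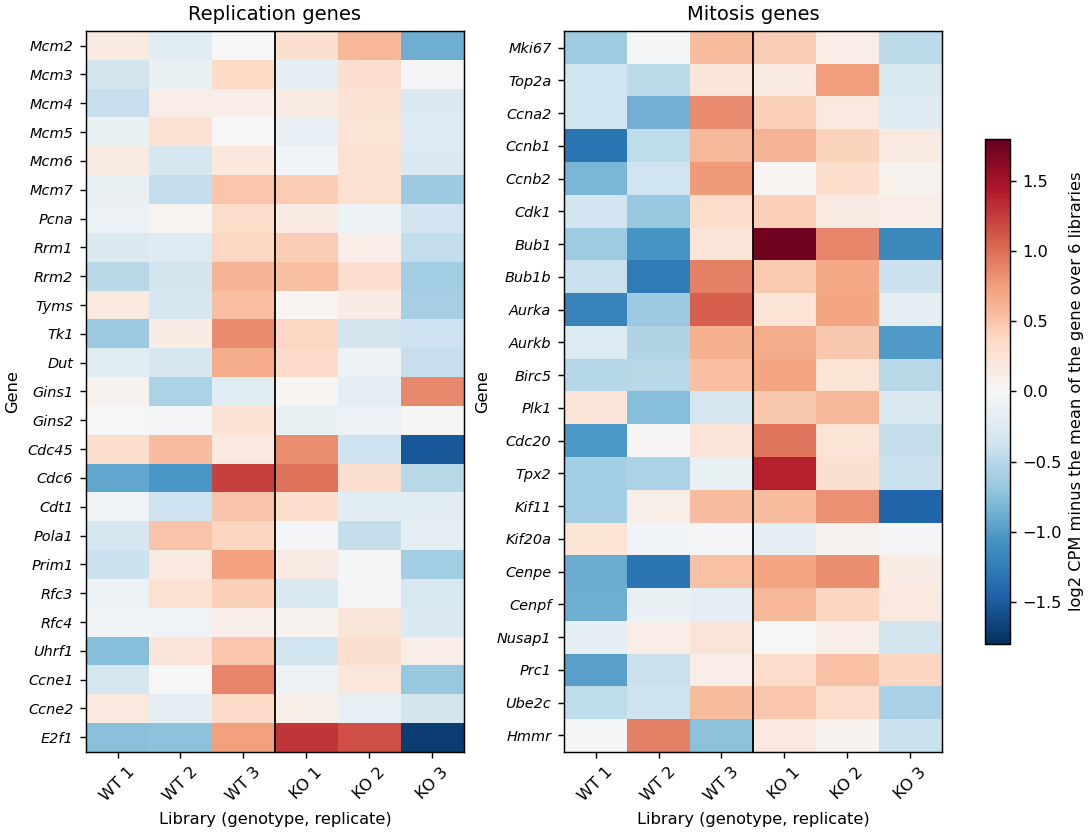
Log2 CPM of each gene minus its own mean over the 6 libraries (colour, red above and blue below the mean), for 25 replication genes (left) and 22 mitosis genes (right), in 3 WT and 3 KO libraries (columns, parted by the line). WT replicate 3 and KO replicates 1 and 2 are mostly red in both panels, and KO replicate 3 is mostly blue among the replication genes.

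Markers of red blood cell precursors, except Gata1, were high in the same 3 libraries. Of 10 listed markers 9 were matched. Their summed level was 127, 435 and 2856 CPM in WT and 7787, 1687 and 96.3 CPM in KO, most of it from globin genes. Klf1 and Slc4a1 were at 0 in WT replicate 1, and Klf1 was at 0 in KO replicate 3. Gata1 was at 21.3, 11.9 and 30.7 CPM in WT and at 17.8, 28.0 and 19.3 CPM in KO, and so was not high in KO replicate 1. The summed mitosis genes were at 280, 311 and 508 CPM in WT and at 519, 513 and 324 CPM in KO, and so were highest in the libraries with the most erythroid signal. In bulk libraries more dividing cells, other cells and more RNA per cell cannot be told apart, and the part of erythroid cells in these levels was not tested beyond 1 fit. With the erythroid mean as a term, chosen after the data were seen, the mitosis median was 0.27 (16 of 22 higher in KO), the replication median -0.10 (20 of 25 lower), and the difference of class means -0.45. The 4 immature thymocyte markers, at low levels, were also highest in these 3 libraries, with a summed level of 1.59, 0.847 and 2.16 CPM in WT and 7.21, 2.43 and 1.105 CPM in KO. Most of that came from Dntt, at 1.36, 0.497 and 2.13 CPM in WT and 7.15, 2.26 and 0.889 CPM in KO, while Rag1 was at 0 in all 6 and Rag2 and Ptcra were at most at 0.263 CPM; their part in the levels of the 47 genes was not tested. Conventional CD4 T cell markers summed to 1710.5, 1551 and 1276.5 CPM in WT and 2069, 1863 and 1431 CPM in KO, with 6 of 7 higher in KO and a median log2 difference of 0.31, while 7 of 7 Treg markers were lower, with a median of -0.44. Il7r (unadjusted p = 0.00985, adjusted p = 0.99992, edgeR) and Cd40lg had every KO library above every WT library, as did 3.68% of all tested genes. The Treg marker Tigit had every KO library below every WT library, as did 4.07% of all tested genes. The part of conventional CD4 T cells in these levels was not tested. B cell markers, in another order, summed to 191, 1083 and 131 CPM in WT and 690, 629 and 516 CPM in KO, and myeloid markers to 373, 1160 and 228 CPM in WT and 954, 1278 and 509 CPM in KO. Markers of germinal centre B cells, which divide fast, summed to between 21.0 and 37.1 CPM in every library.

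**Figure D5:**
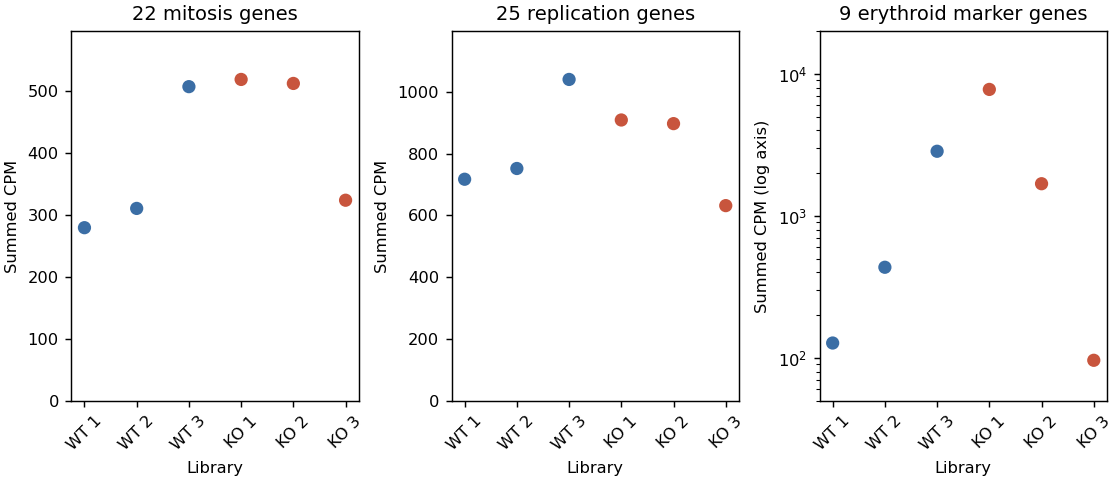
Summed CPM of the 22 mitosis genes (left), the 25 replication genes (middle) and 9 erythroid marker genes (right, log axis) in each of 3 WT (blue) and 3 KO (red) libraries. WT replicate 3 and KO replicates 1 and 2 are the 3 highest libraries in all panels.

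Other genes of the same pathways, from textbook lists, were split in direction in each list. Of 44 other replication genes 28 were higher and 16 lower in KO, with a median of 0.10, and 4 were higher at an unadjusted p under 0.05 in edgeR, beside 1.4% of all genes: Fen1, Orc5, Rpa1 and Pole2. These 4, and no others of the 44, had every KO library above every WT library, beside 3.68% of all genes. Fen1, the nuclease that trims lagging strand fragments, was at 30.8, 31.0 and 26.2 CPM in WT and at 49.9, 57.4 and 53.6 CPM in KO, a log2 difference of 0.87, but its exons overlap the antisense gene Gm10143. Orc5, of the origin recognition complex, was at 20.4, 19.5 and 17.5 CPM in WT and at 37.6, 27.7 and 27.8 CPM in KO. Rpa1, which coats single-stranded DNA and was the most abundant of the list, was at 127.8, 117.4 and 135.9 CPM in WT and at 153.4, 172.3 and 145.9 CPM in KO. The lower ones of smallest p were Pold3, a polymerase delta subunit (log2 difference -0.31), and Clspn, the checkpoint mediator claspin (-0.91).

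Of 64 other mitosis genes 38 were higher and 26 lower in KO, with a median of 0.09. At an unadjusted p under 0.05 in edgeR 2 were higher, beside 1.4% of all genes. Kifc1, a minus-end spindle motor, had means of 1.51 and 5.94 CPM in WT and KO, with 9 counts in WT replicate 2. Anln, the anillin of the cleavage furrow, had means of 1.96 and 5.74 CPM, and its groups overlapped. Kifc1, Kif18a and Ncapg2, 3 of the 64, had every KO library above every WT library, beside 3.68% of all genes. The lower ones of smallest p were Smc4, a condensin subunit and the most abundant of the list (log2 difference -0.20), and Nuf2, a kinetochore protein (-0.67). Of 31 tested genes of G1 control 15 were higher and 16 lower, with a median of -0.01. E2f7, a repressor of the E2F family, was at 0.145, 0.175 and 0.0496 CPM in WT and at 1.56, 1.74 and 1.56 CPM in KO, low in every library but without overlap. E2f3, an activating E2F, had means of 4.24 and 8.98 CPM in WT and KO. Cdkn2b, the CDK inhibitor p15, had 15, 28 and 102 counts in WT and 0, 3 and 0 counts in KO. Of the 31 genes, 2 were higher in KO without overlap, E2f7 and E2f3, beside 3.68% of all genes. Cdkn2b was the only 1 lower without overlap, beside 4.07% of all genes. Rbl2, a pocket protein of resting cells, had a log2 difference of -0.23, and Ccnd2, the most abundant of the list, -0.06. Of 22 genes of S phase repair and checkpoint 8 were higher and 14 lower, with a median of -0.11. The kinase Atr was lower in every KO library than in any WT library, by a log2 difference of -0.36 (unadjusted p = 0.0915, edgeR). It was the only 1 of the 22 without overlap, beside 4.07% of all genes that were lower without overlap. Chek2, another checkpoint kinase, differed by -1.08. Fanci, of the Fanconi pathway, differed by 0.21. Every tested gene of these 4 lists had an adjusted p of 0.99992 in edgeR.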

How the data were processed

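Bulk RNA-seq of sorted mouse Tregs was deposited as 1 table of raw read counts per library (3 WT, 3 KO), with 53379 Ensembl gene identifiers. The authors' steps were bcl2fastq 2.19.0.316, STAR 2.3 and featureCounts on build mm10, per the submitters' processing notes. Libraries were made with the SMARTer Ultra Low Input and NEBNext ChIP-Seq kits and sequenced as 50-base single reads, 6 to a lane, per the labels' protocols. For the annotation release and the strand setting, "not given in the sources used here" applies, so reads of genes whose exons overlap on opposite strands are uncertain, and PCR copies count as separate reads.

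Symbols, exon lengths and overlaps came from GENCODE M21 on GRCm38, the assembly mm10 names. Of the identifiers, 53274 were matched and 105 were not. KO and WT were compared on the deposited counts in R 4.3.3 with edgeR 4.0.16, after filterByExpr and TMM scaling. The robust quasi-likelihood model had 1 term, genotype. Its two-sided F test was adjusted by Benjamini-Hochberg over 20475 genes, and 0.05 was the threshold. CPM uses TMM library sizes, means are over 3 libraries, and log2 CPM adds a prior count of 2. Class means average log2 CPM over the genes of a class. Fits across all genes, simulated with known changes, were checked first.

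The genes, lists, motifs and tests were chosen with earlier results of these data known. Values were given in full for the 4 genes of each class with the highest mean CPM, the 3 with the smallest p, the 2 with the largest and the 2 with the smallest difference, and genes without overlap between genotypes. In other lists the 2 with the smallest p in each direction and the most abundant were named, and other genes below an unadjusted p of 0.05 were added after their values were seen. Some genes that this rule gave are not reported here. Alternatives were DESeq2 1.42.0, limma-voom and library quality weights (limma 3.58.1), other scaling, filters, prior count and class medians, a replicate block, terms for the sets and for erythroid markers, omission of overlapping genes, and each library left out.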

Additional observations from a re-analysis of the deposited data

How the results depend on the processing

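Of the 47 genes, 0 were called by edgeR, limma-voom, DESeq2, library quality weights, other scaling or filters, a term for the sets, an erythroid term or with any 1 library left out. Over all genes DESeq2 called 63 of 23198 (1208 at an unadjusted p under 0.05), against 0 by edgeR (590) and 0 by limma-voom (750), and its smallest adjusted p among the 47 was 0.595 (Cenpf); the cause was not tested. The replication mean minus the mitosis mean, KO minus WT, lay between -0.58 (medians over genes) and -0.43 (without WT replicate 1). The mitosis median lay between 0.10 (without KO replicate 2) and 0.74 (without WT replicate 3), and was 0.42 by limma-voom and 0.51 with quality weights. The replication median lay between -0.18 (without KO replicate 2) and 0.12 (without WT replicate 3), with the sign changed also without KO replicate 3 (0.01). For 23 of the 47 genes the sign held in every fit, among them Prc1 (0.53 to 1.07), Cenpf (0.55 to 0.94), Tpx2 (0.40 to 1.37), Bub1 (0.59 to 1.77), Rfc3 (-0.55 to -0.28) and Pola1 (-0.64 to -0.24). Without WT replicate 3, Cdc6 was at 1.38. Deviations from the genotype means correlated at -0.09, 0.19 and 0.04 between libraries of the same replicate number. The value of 0.19, for WT and KO replicate 2, was the highest between any WT and KO library. Not every library correlated best with its own number. With so few libraries these values cannot decide whether the numbers pair them. With a replicate block 0 genes were called, the mitosis median was 0.44, the replication median -0.05 and the difference of class means -0.48. Depth left 4 of the 47 genes under 100 counts in a library.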

Other observations

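The genes outside the 47 whose log2 CPM followed the class means most closely over the 6 libraries were mostly not cell cycle genes. Among 10167 genes with a mean of at least 10 CPM, those nearest to the replication mean were Srp19 (Pearson correlation 0.993), of the signal recognition particle, the nuclear lamin gene Lmna (0.979), Gm38316 (0.976), whose exons overlap Pnp, the lactate carrier Slc16a1 (0.971) and Cldn13 (0.970). Cldn13 had 4, 26 and 1283 counts in WT replicates 1 to 3 and 1068, 315 and 0 counts in KO replicates 1 to 3. Those nearest to the mitosis mean were the mitochondrial ribosomal gene Mrpl20 (0.996), Ap1b1 (0.990), Ss18l2 (0.987), the SUMO protease gene Senp3 (0.986) and the asparagine synthetase gene Asns (0.976). These are descriptions over 6 libraries that share depth and scaling, and the 5 nearest of so many genes are bound to be close.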
